A study of Mus musculus with 8 samples.

Results

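The genes of Wnt signaling examined here are the Wnt ligands (*Wnt1* to *Wnt16*), the frizzled receptors (*Fzd1* to *Fzd10*), the co-receptors *Lrp5* and *Lrp6*, the receptors *Ror1* and *Ror2*, the secreted inhibitors of the Sfrp and Dkk families, and the response genes *Axin2*, *Lef1* and *Tcf7*. A rule on gene symbols selected them, and earlier results of these data were known when the rule was chosen. Of the 41325 symbols listed in each library, 44 matched. They were 19 ligands, 10 frizzled receptors, 4 co-receptors or alternative receptors, 8 secreted inhibitors and 3 response genes. The libraries came from C3H10T1/2, an established mesenchymal stem cell (MSC) line of the mouse that hormones can turn into fat cells. A control line (shControl, genotype WT) and lines with a knockdown of KDM4D (shKDM4D), NFIB (shNFIB) or MLL1 (shMLL1) were sequenced once at day 0, which was 2 days after confluence, and once at day 5 of adipogenesis, which gave 8 libraries. Differentiation was started with insulin, dexamethasone and isobutylmethylxanthine in medium with fetal bovine serum, followed by insulin and then by serum alone. The knockdown cells carried a stably integrated shRNA vector with puromycin selection, and resistant clones were isolated, so that each line may stand for 1 clone. Which clone and which shRNA were sequenced is not given in the sources used here. KDM4D is a demethylase of histone H3 lysine, NFIB a transcription factor of the nuclear factor I family, and MLL1 a methyltransferase of histone H3 lysine encoded by *Kmt2a*.

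Wnt ligands are secreted, lipid-modified glycoproteins. In the canonical branch a ligand binds a frizzled receptor together with LRP5 or LRP6, β-catenin is stabilized, and TCF/LEF factors switch on response genes such as *Axin2*, which itself restrains the pathway. Other ligands act through ROR1 or ROR2 without β-catenin, SFRP proteins bind the ligands, and DKK proteins bind LRP5 and LRP6. In cultured preadipocytes canonical Wnt signaling is known as a brake on adipogenesis, and WNT10B is its best known ligand there.

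The expression values are RPKM, the reads of a gene scaled to the length of its exons in kilobases and to the mapped reads of its library, so that levels can be compared between genes per length. A gene was called higher or lower when its RPKM differed by more than 2-fold between 2 libraries. Calls were made among the 11513 genes that exceeded an RPKM of 1 in 1 or more libraries. Of 71 calls of single Wnt genes, 34 ended when 1 was added to each RPKM, which the gene paragraphs mostly leave unmarked. They include the *Wnt5b* and *Fzd4* calls against shControl cells and the fall of *Axin2* in shNFIB cells. As there are no replicate libraries, no p-value is given, and the exact 95% intervals of the log2 ratios, which stand in parentheses, cover counting error only. Depth was between 15800000 and 38200000 mapped reads, as recovered from the values themselves. A pair of rRNA-like genes took from 7.95% to 10.5% of the reads at day 0 and from 3.07% to 3.62% at day 5, which moves every RPKM of a library by the same factor. *Nfib* was at 9.92 and 17.0 RPKM at days 0 and 5 in shControl cells and at 2.31 and 3.38 in shNFIB cells, and *Kmt2a* was at 5.17 and 5.27 in shControl cells and at 2.00 and 1.63 in shMLL1 cells. *Kdm4d* was covered by only 2 and 13 reads in shControl cells and by 1 and 4 reads in shKDM4D cells. Of 10 mesenchymal markers, 9 had an RPKM over 1 in all 8 libraries. The exception was *Thy1*, at 25.0 and 22.6 RPKM in shControl cells and 11.8 and 11.1 in shMLL1 cells, but between 0.0171 and 0.139 in shKDM4D and shNFIB cells. The 8 adipocyte markers summed to 776.6 RPKM in shControl cells at day 5 and to between 12.0 and 38.6 in the knockdown cells at day 5, and *Lep*, which mature fat cells secrete, was at 0 in every library. The lists of blood, endothelial and epithelial markers each summed to at most 1.80 RPKM in any library. The 3 chondrocyte markers summed to between 71.7 and 193 RPKM, of which *Sox9* made up most, at 48.4 to 188, and with a higher value at day 5 in each line, whereas *Col2a1* (0.264 to 27.5) was lower at day 5 in each line and *Acan* was at or near 0. The 4 neural markers summed to between 6.09 and 14.4, mostly from *Map2* and with *Sox2* at 0, and the 5 osteoblast markers to between 2.94 and 8.44, mostly from *Runx2*. The part of these markers in the results was not tested.

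Of the 44 Wnt genes, 20 had an RPKM over 1 in at least 1 library, and 24 did not. The 20 were 3 of 19 ligands, 7 of 10 frizzled receptors, all 4 co-receptors and alternative receptors, 3 of 8 secreted inhibitors and the 3 response genes. Several of them passed only through the libraries in which they were high. *Axin2* and *Wnt7a* passed only through shNFIB cells at day 0, *Dkk2* only through shNFIB and shMLL1 cells at day 0, and *Wnt5b*, *Fzd9*, *Ror1* and *Sfrp2* only through day 5, so their differences follow in part from the filter. Among the remaining genes, *Wnt3a*, *Wnt8b*, *Wnt9b*, *Dkk1* and *Dkk4* had no read in any library.

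**Figure D1:**
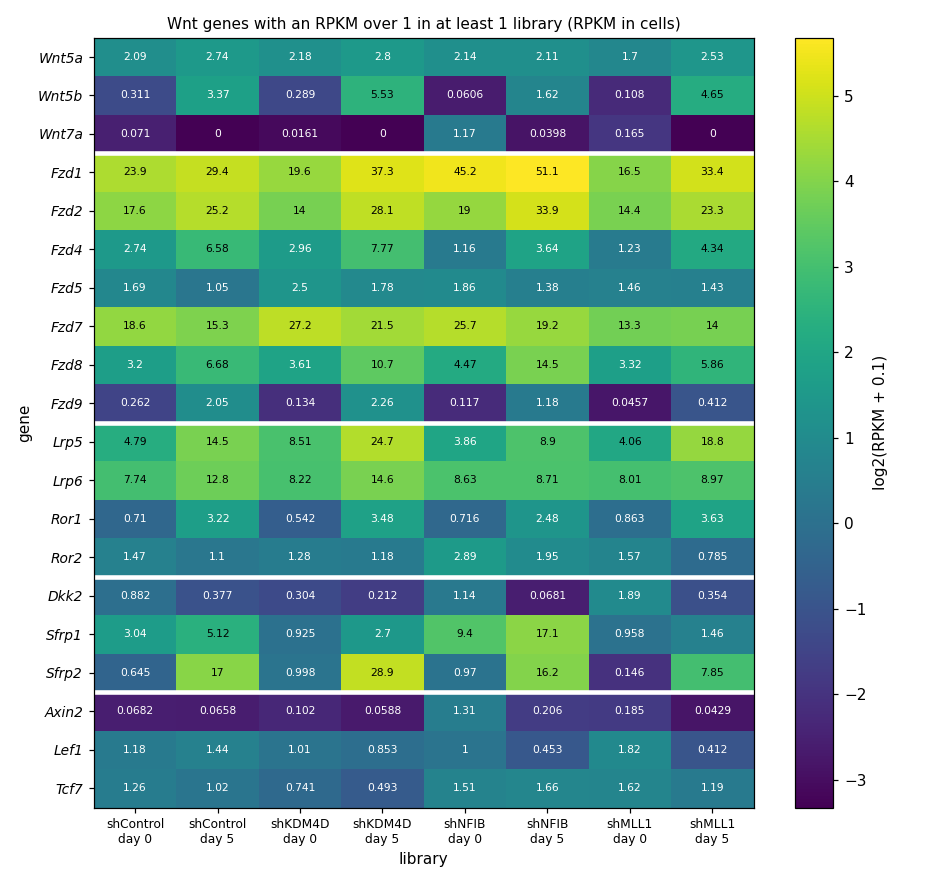
RPKM of the 20 Wnt genes that had an RPKM over 1 in at least 1 library (rows, grouped by role) in the 8 libraries (columns), with the RPKM printed in each cell and log2(RPKM + 0.1) as color. *Fzd1* was the highest of the 20 in 7 of the 8 libraries, and *Sfrp2* and *Wnt5b* were higher at day 5 in every line.

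The upstream sequence of 4 of these genes is shown, because *Sfrp2* and *Wnt5b* were higher at day 5 in every line and *Axin2* and *Wnt7a* stood out in shNFIB cells. Each line gives the 250 bases before an annotated transcription start, 5′ to 3′ on the strand of the gene, from RefSeq (GRCm38.p6), with capitals for the only motif matches that were found. The Sfrp2 bases are chr3:83766071-83766320 (plus strand), the Axin2 bases chr11:108920099-108920348 (plus), the Wnt7a bases chr6:91411354-91411603 (minus), and the Wnt5b bases chr6:119449387-119449636 and chr6:119467212-119467461 (both minus), which belong to separate annotated starts inside the gene. The remaining Wnt5b window of the table, at the outermost start, held no match and is not shown.
Sfrp2: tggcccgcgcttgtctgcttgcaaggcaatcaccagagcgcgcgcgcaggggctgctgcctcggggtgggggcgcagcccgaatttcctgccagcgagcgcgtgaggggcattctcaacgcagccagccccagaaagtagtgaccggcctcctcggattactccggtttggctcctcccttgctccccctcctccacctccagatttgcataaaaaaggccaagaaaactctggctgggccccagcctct
Wnt5b, inner start: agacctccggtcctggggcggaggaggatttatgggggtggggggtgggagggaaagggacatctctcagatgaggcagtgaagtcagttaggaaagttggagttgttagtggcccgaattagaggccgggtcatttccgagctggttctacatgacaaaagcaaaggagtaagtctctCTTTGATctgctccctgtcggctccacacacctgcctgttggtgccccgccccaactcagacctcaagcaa
Wnt5b, middle start: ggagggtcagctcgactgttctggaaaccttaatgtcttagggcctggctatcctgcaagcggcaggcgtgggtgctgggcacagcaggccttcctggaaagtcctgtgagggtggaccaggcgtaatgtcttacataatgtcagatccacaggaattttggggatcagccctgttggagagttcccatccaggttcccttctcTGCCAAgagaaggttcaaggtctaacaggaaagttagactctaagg
Axin2: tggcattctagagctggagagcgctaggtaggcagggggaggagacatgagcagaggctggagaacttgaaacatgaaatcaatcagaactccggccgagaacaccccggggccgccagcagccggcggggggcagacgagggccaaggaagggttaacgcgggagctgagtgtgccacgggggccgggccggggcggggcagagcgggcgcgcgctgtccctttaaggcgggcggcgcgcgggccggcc
Wnt7a: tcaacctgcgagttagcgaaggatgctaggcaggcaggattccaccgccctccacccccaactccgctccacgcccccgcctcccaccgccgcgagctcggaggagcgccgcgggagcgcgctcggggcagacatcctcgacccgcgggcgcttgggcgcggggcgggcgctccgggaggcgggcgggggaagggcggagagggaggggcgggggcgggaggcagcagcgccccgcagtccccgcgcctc
The motifs looked for, on both strands, were the TCF/LEF core CTTTGAT (complement ATCAAAG) and the nuclear factor I recognition core TTGGCA (complement TGCCAA), which do not overlap in the windows. Neither was found in the *Sfrp2*, *Axin2* or *Wnt7a* bases shown. In the Wnt5b sequences the capitals mark CTTTGAT, whose first base lies 71 bases before the inner start, and TGCCAA, 46 bases before the middle start.

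RefSeq promoter windows of 300 bases (250 before and 50 after a start) were held for 30 of the 44 Wnt genes, in 37 windows. Their median GC content was 67.3%, against 52.7% over all 32851 windows of the table, and the median number of CG dinucleotides was 24 against 7. The TCF/LEF core was present in 2 of the 37 windows (5.41%), those of *Wnt5b* and *Wnt11*, and in 3.73% of all windows. The nuclear factor I core was present in 1 of the 37 windows (2.70%) and in 14.1% of all windows. A match is a string of letters in a window and does not show that a factor binds there, and its lack says nothing of sites elsewhere.

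Ligand transcripts were rare, and *Wnt5a* and *Wnt5b* made up most of them. *Wnt5a* (chromosome 14 of GRCm38, 28504750 to 28527448, plus strand, protein coding), which encodes a ligand best known for signaling without β-catenin, was steady. Its RPKM at day 0 then day 5 was 2.09 then 2.74 in the shControl line, 2.18 then 2.80 with shKDM4D, 2.14 then 2.11 with shNFIB, and 1.70 then 2.53 with shMLL1. The lowest and highest of the 8 libraries differed by 1.64-fold, and no comparison passed 2-fold. *Wnt5b* (chromosome 6 of GRCm38, 119432531 to 119544347, minus strand, protein coding), its close paralog, was low at day 0 and above 1 RPKM at day 5. It had an RPKM of 0.311 then 3.37 in the shControl line, 0.289 then 5.53 with shKDM4D, 0.0606 then 1.62 with shNFIB, and 0.108 then 4.65 with shMLL1. All 4 day 5 libraries thus lay above all 4 day 0 libraries. The log2 change from day 0 to day 5 was 3.44 (95% interval 2.79 to 4.15) in shControl cells, 4.26 (3.51 to 5.11) in shKDM4D cells, 4.74 (3.13 to 7.05) for shNFIB and 5.42 (4.57 to 6.44) for shMLL1. At day 0 it rested on 22, 15, 3 and 11 reads in these lines, so the size of the change is known less well than its direction. Against shControl cells, *Wnt5b* was lower in shNFIB cells on both days, by a log2 ratio of -2.36 (-4.74 to -0.63) on day 0 and -1.06 (-1.49 to -0.65) on day 5. In shMLL1 cells it was lower at day 0 (-1.52, interval -2.71 to -0.41) and, at 0.46 (0.21 to 0.72), within 2-fold at day 5. The difference at day 0 ended as a call when 0.1 was added to each RPKM in shMLL1 cells. The ratios of shKDM4D cells, -0.11 (-1.16 to 0.91) and 0.71 (0.44 to 0.99), were within 2-fold.

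*Wnt7a* (chromosome 6 of GRCm38, 91363981 to 91411363, minus strand, protein coding), which encodes a ligand able to signal through β-catenin, was near the detection limit in 7 of the 8 libraries. It was covered by 6 reads in shControl cells at day 0, 1 read in shKDM4D cells, 69 reads in shNFIB cells and 20 reads in shMLL1 cells, and at day 5 by 2 reads in shNFIB cells and none in the other lines. In RPKM this was 0.0710 then 0 in the shControl line, 0.0161 then 0 with shKDM4D, 1.17 then 0.0398 with shNFIB, and 0.165 then 0 with shMLL1. Only shNFIB cells at day 0 passed an RPKM of 1, with a log2 ratio to shControl cells of 4.04 (95% interval 2.84 to 5.53). In shNFIB cells it then fell by day 5, with a log2 change of -4.87 (-7.95 to -2.96). In shMLL1 cells it was at least 6.65-fold lower at day 5, taking 3 reads as the floor of the day 5 library. The same floor gave at least 1.45-fold in shControl cells, and no fold could be given in shKDM4D cells, where 1 read stood against 0. The ratios of shKDM4D (-2.14, interval -7.66 to 0.91) and shMLL1 cells (1.22, interval -0.15 to 2.82) to shControl cells at day 0 passed 2-fold, but their intervals included 0.

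The other 16 ligands stayed below an RPKM of 0.371 and at or below 34 reads in every library. *Wnt9a* was the highest of them, with 24 then 7 reads in the shControl line, 11 then 9 with shKDM4D, 23 then 5 with shNFIB, and 26 then 34 with shMLL1. *Wnt10b*, the ligand known for holding preadipocytes back, never passed 0.208 RPKM. It was covered by 5 then 4 reads in the shControl line, 1 then 12 with shKDM4D, 3 then 5 with shNFIB, and 2 then 27 with shMLL1. A fall of *Wnt10b* during differentiation of control cells was therefore not detectable at this depth. The higher counts stood at day 5 in shKDM4D and shMLL1 cells, with log2 changes of 3.44 (0.68 to 8.86) and 3.76 (1.77 to 6.88). Set against shControl cells at day 5, the shKDM4D ratio was 1.42 (-0.30 to 3.51), an interval that included 0. The interval of the shMLL1 ratio at day 5 did not include 0. *Wnt11*, a ligand that mostly acts without β-catenin, had 15 reads in shKDM4D cells at day 5 and at most 4 elsewhere. *Wnt2b* and *Wnt6* had at most 7 reads, *Wnt1* and *Wnt4* at most 5, *Wnt2* at most 4 and *Wnt16* at most 2. *Wnt3*, *Wnt7b*, *Wnt8a* and *Wnt10a* had at most 1 read in any library. The summed RPKM of the 19 ligands went from 2.96 (2.68 to 3.25) at day 0 to 6.59 (5.99 to 7.18) at day 5 in shControl cells, with 95% counting intervals. It went from 2.82 to 9.16 in shKDM4D cells, from 3.85 to 4.18 in shNFIB cells and from 2.26 to 7.80 in shMLL1 cells. The intervals of the shNFIB sums overlapped between the days, unlike those of the other lines.

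Frizzled receptors, the membrane receptors that bind the ligands, were far more abundant than the ligands. *Fzd1*, *Fzd2* and *Fzd7* led in every library. *Fzd1* had an RPKM of 23.9 then 29.4 in the shControl line, 19.6 then 37.3 with shKDM4D, 45.2 then 51.1 with shNFIB, and 16.5 then 33.4 with shMLL1. It was highest in shNFIB cells on both days, where the log2 ratio to shControl cells was 0.92 (0.85 to 0.99) on day 0 and 0.80 (0.72 to 0.87) on day 5, just within 2-fold. In shMLL1 cells its log2 change between the days was 1.02 (0.95 to 1.09), and this call ended under each of the other scalings tried. *Fzd2* had 17.6 then 25.2 in the shControl line, 14.0 then 28.1 with shKDM4D, 19.0 then 33.9 with shNFIB, and 14.4 then 23.3 with shMLL1. Its 4 day 5 values lay above its 4 day 0 values, and its change passed 2-fold only in shKDM4D cells, at 1.00 (0.90 to 1.11), a call that ended after median-of-ratios scaling and when the rRNA-like genes were left out of the totals. *Fzd7* was at 18.6 then 15.3 in the shControl line, 27.2 then 21.5 with shKDM4D, 25.7 then 19.2 with shNFIB, and 13.3 then 14.0 with shMLL1, with no comparison past 2-fold. By level, *Fzd1* ranked first except in shKDM4D cells at day 0, where *Fzd7* did. *Fzd7* and *Fzd2* did not differ beyond their counting intervals in shControl cells at day 0, nor did *Fzd2* and *Fzd7* in shMLL1 cells at day 0.

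*Fzd4* and *Fzd9* were higher at day 5 in all 4 lines, and *Fzd8* in all but shMLL1. *Fzd4* (chromosome 7 of GRCm38, 89404355 to 89413134, plus strand, protein coding), a receptor that also serves the ligand norrin in blood vessels, had an RPKM of 2.74 then 6.58 in the shControl line, 2.96 then 7.77 with shKDM4D, 1.16 then 3.64 with shNFIB, and 1.23 then 4.34 with shMLL1. It was higher at day 5 in all 4 lines, with log2 changes of 1.27 (1.10 to 1.43), 1.39 (1.23 to 1.56), 1.65 (1.37 to 1.93) and 1.82 (1.64 to 2.00) in the order just given. At day 0, set against shControl cells, it was lower in shNFIB (-1.23, interval -1.51 to -0.96) and shMLL1 cells (-1.15, interval -1.36 to -0.95), the latter within 2-fold after quantile normalization. At day 5 the same ratios were -0.85 (-1.03 to -0.68) and -0.60 (-0.73 to -0.47), within 2-fold.

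The RPKM of *Fzd8* was 3.20 then 6.68 in the shControl line, 3.61 then 10.7 with shKDM4D, 4.47 then 14.5 with shNFIB, and 3.32 then 5.86 with shMLL1. Of its 8 values, 7 lay more than 0.02 from a whole read at the annotated length, by up to 0.475. Such values also occurred for *Fzd1*, *Fzd2*, *Fzd7*, *Lrp5*, *Lrp6* and *Sfrp2*, but there the distance was at most 0.0813. The intervals of all genes were taken from the nearest read. The day 5 values lay above the day 0 values, and the log2 change was 1.06 (0.90 to 1.23) for shControl, 1.57 (1.41 to 1.73) for shKDM4D, 1.70 (1.55 to 1.85) for shNFIB and 0.82 (0.69 to 0.95) for shMLL1. The first of these fell within 2-fold when the rRNA-like genes were left out. At day 5 *Fzd8* was higher in shNFIB than in shControl cells, by a log2 ratio of 1.12 (0.99 to 1.25). *Fzd9* (chromosome 5 of GRCm38, 135248938 to 135251230, minus strand, protein coding) had the largest day change of the receptors in shControl cells. Its RPKM was 0.262 then 2.05 in the shControl line, 0.134 then 2.26 with shKDM4D, 0.117 then 1.18 with shNFIB, and 0.0457 then 0.412 with shMLL1. Log2 changes of 2.97 (2.19 to 3.84), 4.08 (2.91 to 5.55), 3.34 (2.01 to 5.03) and 3.17 (1.69 to 5.12) were found in shControl, shKDM4D, shNFIB and shMLL1 cells, from between 4 and 16 reads at day 0. It was lower in shMLL1 than in shControl cells on both days, with log2 ratios of -2.52 (-4.56 to -0.89) on day 0 and -2.32 (-2.92 to -1.75) on day 5, and the interval of the shNFIB ratio at day 0 (-1.16, interval -2.97 to 0.35) included 0.

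*Fzd5* had an RPKM of 1.69 then 1.05 in the shControl line, 2.50 then 1.78 with shKDM4D, 1.86 then 1.38 with shNFIB, and 1.46 then 1.43 with shMLL1, and passed 2-fold in no comparison. *Fzd3*, a receptor known from planar polarity and axon guidance, stayed under an RPKM of 1 and was thus outside the calls, but it had enough reads to compare. It was at 0.103 then 0.162 in the shControl line, 0.108 then 0.184 with shKDM4D, 0.728 then 0.759 with shNFIB, and 0.249 then 0.137 with shMLL1. Both shNFIB libraries stood above the other 6, with 174 and 154 reads and log2 ratios to shControl cells of 2.83 (2.30 to 3.39) on day 0 and 2.23 (1.72 to 2.77) on day 5. The shMLL1 ratio at day 0 was 1.28 (0.73 to 1.87). *Fzd6* had at most 8 reads and *Fzd10* at most 1 in any library. The summed RPKM of the 10 frizzled receptors was 68.1 then 86.4 in the shControl line, 70.1 then 109.5 with shKDM4D, 98.2 then 126 with shNFIB, and 50.5 then 82.9 with shMLL1. On both days shNFIB cells had the highest sum and shMLL1 cells the lowest.

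**Figure D2:**
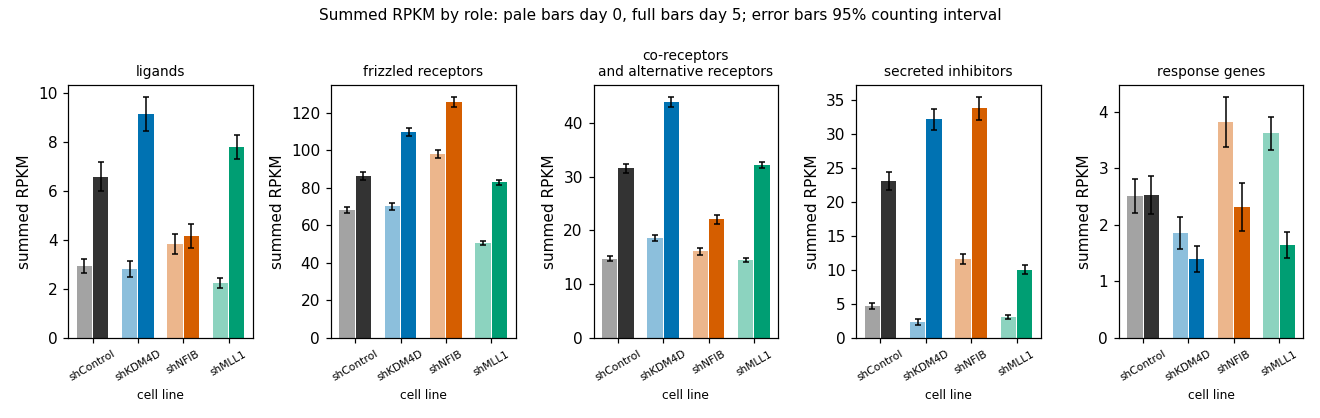
Summed RPKM of all members of each role (y axis, from 0) in the 4 lines (x axis), with pale bars for day 0, full bars for day 5 and error bars for the 95% counting interval of the sum. The sums of ligands, frizzled receptors, co-receptors and secreted inhibitors were higher at day 5 in each line, the shNFIB ligand sums (3.85 and 4.18) by less than their counting intervals.

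LRP5 and LRP6 are the co-receptors of the canonical branch. *Lrp5* (chromosome 19 of GRCm38, 3584828 to 3686564, minus strand, protein coding) had an RPKM of 4.79 then 14.5 in the shControl line, 8.51 then 24.7 with shKDM4D, 3.86 then 8.90 with shNFIB, and 4.06 then 18.8 with shMLL1. It was higher at day 5 in all 4 lines, with log2 changes of 1.59 (1.50 to 1.69), 1.53 (1.45 to 1.62), 1.21 (1.07 to 1.34) and 2.21 (2.13 to 2.29), each from at least 701 reads at either day. No knockdown line differed from shControl cells by more than 2-fold. *Lrp6* was at 7.74 then 12.8 in the shControl line, 8.22 then 14.6 with shKDM4D, 8.63 then 8.71 with shNFIB, and 8.01 then 8.97 with shMLL1. The 4 day 5 values lay above the 4 day 0 values by a small margin, no comparison passed 2-fold, and the changes in shNFIB (0.01, interval -0.08 to 0.10) and shMLL1 cells (0.16, interval 0.10 to 0.22) turned sign under another scaling. At day 0 *Lrp6* exceeded *Lrp5* in shControl, shNFIB and shMLL1 cells, and at day 5 *Lrp5* exceeded *Lrp6* in shControl, shKDM4D and shMLL1 cells.

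ROR1 and ROR2 are receptor tyrosine kinases that bind WNT5A. *Ror1* (chromosome 4 of GRCm38, 100095791 to 100444765, plus strand, protein coding) had an RPKM of 0.710 then 3.22 in the shControl line, 0.542 then 3.48 with shKDM4D, 0.716 then 2.48 with shNFIB, and 0.863 then 3.63 with shMLL1. It was higher at day 5 in all 4 lines, by log2 changes of 2.18 (1.87 to 2.51), 2.69 (2.30 to 3.10), 1.79 (1.41 to 2.18) and 2.07 (1.84 to 2.31), and differed by less than 2-fold between the lines on each day. *Ror2*, at 1.47 then 1.10 in the shControl line, 1.28 then 1.18 with shKDM4D, 2.89 then 1.95 with shNFIB, and 1.57 then 0.785 with shMLL1, had a lower value at day 5 than at day 0 in each line instead. Only the change in shMLL1 cells passed 2-fold, with a 95% interval of -1.32 to -0.69 on the log2 scale, and it ended with 0.1 added to each RPKM. *Ror2* was highest in shNFIB cells on both days, with log2 ratios of 0.98 (0.68 to 1.27) and 0.83 (0.43 to 1.23) to shControl cells, within 2-fold.

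Among the secreted inhibitors, *Sfrp2* was higher at day 5 in all 4 lines. *Sfrp2* (chromosome 3 of GRCm38, 83766321 to 83774316, plus strand, protein coding), a soluble frizzled-like protein that binds Wnt ligands, had an RPKM of 0.645 then 17.0 in the shControl line, 0.998 then 28.9 with shKDM4D, 0.970 then 16.2 with shNFIB, and 0.146 then 7.85 with shMLL1. All day 0 values were below 1 and all day 5 values above 7. The log2 change was 4.72 (95% interval 4.24 to 5.24) in shControl cells, which is 26.3-fold, 4.85 (4.41 to 5.33) in shKDM4D cells, 4.06 (3.59 to 4.56) for shNFIB and 5.75 (4.93 to 6.71) for shMLL1. *Sfrp2* was lower in shMLL1 than in shControl cells on both days, with log2 ratios of -2.14 (-3.22 to -1.17) and -1.11 (-1.27 to -0.96), the first from 12 against 37 reads. On day 5 the log2 ratio for shNFIB was -0.07 (-0.24 to 0.09), and in shKDM4D cells 0.77 (0.63 to 0.90), both within 2-fold. The gene *Gm26771* overlaps it on the other strand with at most 0.599 RPKM, and whether the reads were counted by strand is not given in the sources used here.

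*Sfrp1* (chromosome 8 of GRCm38, 23411502 to 23449632, plus strand, protein coding) varied more between the lines than between the days. Its RPKM was 3.04 then 5.12 in the shControl line, 0.925 then 2.70 with shKDM4D, 9.40 then 17.1 with shNFIB, and 0.958 then 1.46 with shMLL1. On both days shNFIB cells were highest, and shKDM4D and shMLL1 cells were below shControl cells. For shNFIB the log2 ratio to shControl was 1.63 (95% interval 1.45 to 1.81) on day 0 and 1.74 (1.58 to 1.90) on day 5, or 3.09-fold and 3.34-fold. In shMLL1 cells it was -1.67 (-1.94 to -1.39) and -1.81 (-2.05 to -1.58). In shKDM4D cells it was -1.72 (-2.09 to -1.36) at day 0 and -0.93 (-1.15 to -0.70), within 2-fold, at day 5. These calls held under both pseudocounts and each scaling tried. Between the days *Sfrp1* passed 2-fold only in shKDM4D cells (1.54, interval 1.18 to 1.93), and its change in shMLL1 cells, 0.61 (0.31 to 0.90), became -0.11 after quantile normalization.

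*Dkk2* (chromosome 3 of GRCm38, 132085292 to 132180304, plus strand, protein coding), which encodes a ligand of LRP5 and LRP6, was the inhibitor that was lower at day 5. Its RPKM was 0.882 then 0.377 in the shControl line, 0.304 then 0.212 with shKDM4D, 1.14 then 0.0681 with shNFIB, and 1.89 then 0.354 with shMLL1, from between 4 and 267 reads. The log2 change was -1.23 (-1.91 to -0.59) in shControl, -4.07 (-5.98 to -2.65) in shNFIB and -2.41 (-2.88 to -1.97) in shMLL1 cells, and -0.52 (-1.52 to 0.46), within 2-fold, in shKDM4D cells. At day 0 *Dkk2* was lower in shKDM4D cells (-1.54, interval -2.28 to -0.85) and higher in shMLL1 cells (1.10, interval 0.74 to 1.46) than in shControl cells. At day 5 it was lower in shNFIB cells (-2.47, interval -4.44 to -0.95). *Dkk3*, a family member with no settled role in the pathway, stayed under an RPKM of 1, at 0.168 then 0.554 in the shControl line, 0.107 then 0.386 with shKDM4D, 0.0957 then 0.357 with shNFIB, and 0.0468 then 0.375 with shMLL1. Its day 5 values nonetheless all lay above its day 0 values, and the interval of the log2 change was above 0 in every line, 0.82 to 2.70 for shControl and 1.78 to 4.52 for shMLL1. *Sfrp4* had at most 9 reads and *Sfrp5* at most 1 in any library. Over all 8 inhibitors the summed RPKM went from 4.76 to 23.2 in shControl cells, from 2.36 to 32.2 in shKDM4D cells, from 11.7 to 33.8 in shNFIB cells and from 3.04 to 10.0 in shMLL1 cells. *Sfrp2* was the leading inhibitor at day 5 in 3 lines, and in shNFIB cells *Sfrp1* and *Sfrp2* did not differ beyond their counting intervals.

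**Figure D3:**
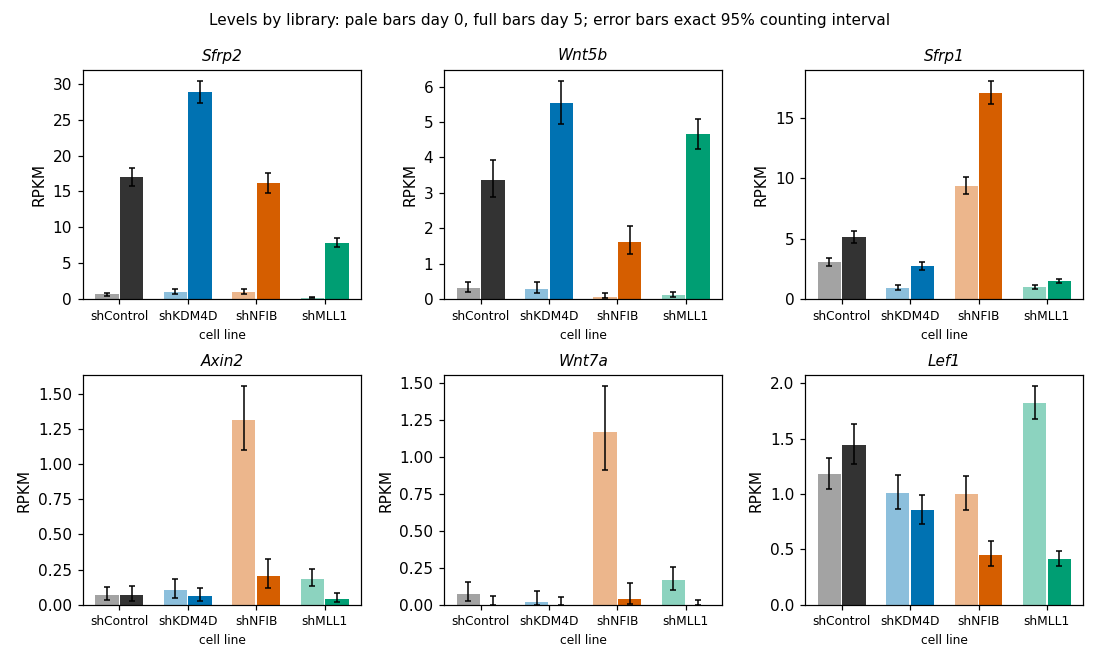
RPKM (y axis, from 0) of *Sfrp2*, *Wnt5b*, *Sfrp1*, *Axin2*, *Wnt7a* and *Lef1* in the 4 lines (x axis), with pale bars for day 0, full bars for day 5 and error bars for the exact 95% counting interval. *Sfrp2* and *Wnt5b* were high at day 5, *Sfrp1* was highest in shNFIB cells, and *Axin2* and *Wnt7a* were high only in shNFIB cells at day 0.

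*Axin2* (chromosome 11 of GRCm38, 108920349 to 108950783, plus strand, protein coding), a scaffold protein of the β-catenin destruction complex and a widely used readout of canonical signaling, was low in 7 of the 8 libraries. It had an RPKM of 0.0682 then 0.0658 in the shControl line, 0.102 then 0.0588 with shKDM4D, 1.31 then 0.206 with shNFIB, and 0.185 then 0.0429 with shMLL1. The reads behind these values were 10 then 7 in the shControl line, 11 then 7 with shKDM4D, 135 then 18 with shNFIB, and 39 then 9 with shMLL1. The shNFIB cells at day 0 stood apart, with a log2 ratio to shControl cells of 4.27 (95% interval 3.34 to 5.36), or 19.3-fold. The ratio of shMLL1 to shControl cells at day 0 was 1.44 (0.41 to 2.61), and that of shNFIB cells at day 5 was 1.65 (0.32 to 3.15), both of which came within 2-fold when 0.1 was added to each RPKM. By day 5 *Axin2* had fallen in shNFIB cells (-2.67, interval -3.47 to -1.96), and in shMLL1 cells the change was -2.11 (-3.34 to -1.04), also within 2-fold with 0.1 added. In shControl and shKDM4D cells, with at most 11 reads, a change was not detectable at this depth, with log2 values of -0.05 (-1.68 to 1.49) and -0.80 (-2.40 to 0.70).

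*Lef1* and *Tcf7* encode TCF/LEF transcription factors. *Lef1* (chromosome 3 of GRCm38, 131110471 to 131224356, plus strand, protein coding) had an RPKM of 1.18 then 1.44 in the shControl line, 1.01 then 0.853 with shKDM4D, 1.000 then 0.453 with shNFIB, and 1.82 then 0.412 with shMLL1. At day 0 the 3 knockdown lines were within 2-fold of shControl cells. At day 5 *Lef1* was lower in shNFIB (-1.67, interval -2.10 to -1.27) and shMLL1 cells (-1.81, interval -2.12 to -1.50), while the shKDM4D ratio of -0.76 (-1.05 to -0.47) was within 2-fold. Between the days it fell in shNFIB cells by 1.14 (interval of the log2 change -1.59 to -0.72) and in shMLL1 cells by 2.15 (-2.42 to -1.88) on the log2 scale, and in shControl cells the log2 change was 0.29 (0.04 to 0.54). The shNFIB change came within 2-fold when 0.1 was added to each RPKM. The RPKM of *Tcf7* was 1.26 then 1.02 in the shControl line, 0.741 then 0.493 with shKDM4D, 1.51 then 1.66 with shNFIB, and 1.62 then 1.19 with shMLL1. It was lowest in shKDM4D cells on both days, where the log2 ratio to shControl cells was -0.76 (-1.35 to -0.20) on day 0 and -1.05 (-1.77 to -0.36) on day 5. The latter was the only call of shKDM4D cells at day 5, from 28 against 52 reads, and it ended with quantile normalization or with 0.1 added to each RPKM.

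Counted over the lists, in shControl cells 7 of the 44 Wnt genes (*Wnt5b*, *Fzd4*, *Fzd8*, *Fzd9*, *Lrp5*, *Ror1* and *Sfrp2*) were higher and 2 (*Wnt7a* and *Dkk2*) lower at day 5 than at day 0, each of them among the 20 with an RPKM over 1. Of all 11513 genes tested, which passed the same filter, 13.0% were higher and 8.56% lower. In shKDM4D cells 9 genes were higher, the same 7 with *Fzd2* and *Sfrp1*, and 1 (*Wnt7a*, 1 read against 0) was lower, against 12.8% and 8.44% of all genes. In shNFIB cells 7 were higher, the same as in shControl cells, and 4 (*Wnt7a*, *Dkk2*, *Axin2* and *Lef1*) were lower, against 12.6% and 4.96%. In shMLL1 cells 7 were higher, with *Fzd1* in place of *Fzd8*, and 5 (*Wnt7a*, *Ror2*, *Dkk2*, *Axin2* and *Lef1*) were lower, against 20.4% and 6.89%. All 4 day 5 libraries lay above all 4 day 0 libraries for 9 of the 20 genes (*Wnt5b*, *Fzd2*, *Fzd4*, *Fzd8*, *Fzd9*, *Lrp5*, *Lrp6*, *Ror1* and *Sfrp2*), against 22.5% of all genes tested, and below them for 0, against 15.1%. Since *Wnt5b*, *Fzd9*, *Ror1* and *Sfrp2* passed the filter only through day 5, the count of 9 and the shares of higher genes follow in part from it. *Axin2*, *Wnt7a* and *Dkk2* passed only through day 0, so the shares of lower genes follow in part from the filter as well. The median log2 change of the 44 genes, with 0.1 added to each RPKM, was 0.24 for shControl, 0.23 for shKDM4D, 0.00 for shNFIB and 0.04 for shMLL1, beside 0.03, 0.03, 0.09 and 0.17 over all genes tested. The all-gene medians are of genes past an RPKM of 1, while the 44 include 24 that were not, most of them near 0. Over the 20 Wnt genes past the same filter the medians were 0.45, 0.87, 0.15 and 0.55, values that describe a set of which *Wnt5b*, *Fzd9*, *Ror1* and *Sfrp2* passed only through day 5. In a bulk sample fewer cells of a type and less RNA per cell cannot be told apart. The summed adipocyte markers went from 10.9 to 776.6 RPKM between the days in shControl cells, from 7.42 to 38.6 in shKDM4D cells, from 7.40 to 12.0 in shNFIB cells and from 4.09 to 12.3 in shMLL1 cells. The part of these markers in the changes of the Wnt genes was not tested.

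**Figure D4:**
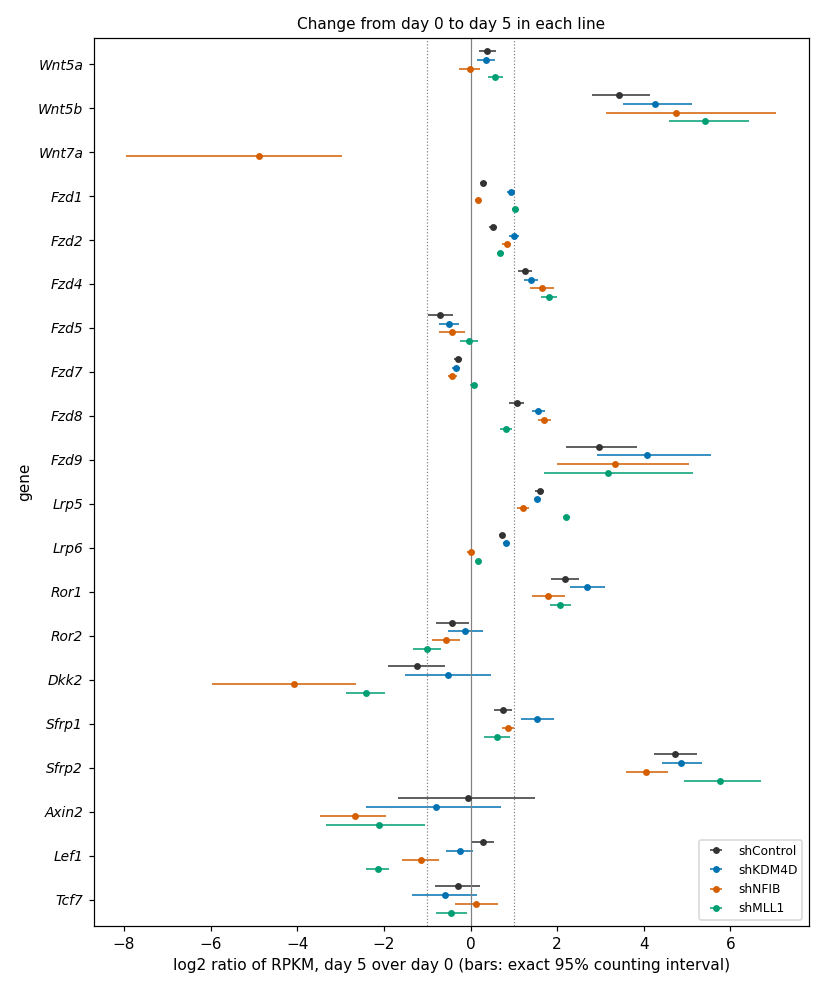
Log2 ratio of RPKM at day 5 to day 0 (x axis) of the 20 Wnt genes (y axis) in the 4 lines (colors), with exact 95% counting intervals, dotted lines at 2-fold, and no point where a library had no read. *Wnt5b*, *Fzd4*, *Fzd9*, *Lrp5*, *Ror1* and *Sfrp2* lay to the right of the 2-fold line in each line.

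Against shControl cells at day 0, shKDM4D cells had 0 Wnt genes higher and 3 lower (*Wnt7a*, *Dkk2* and *Sfrp1*), where 1.98% and 4.26% of all genes tested were higher and lower. The shNFIB cells had 3 higher (*Wnt7a*, *Sfrp1* and *Axin2*) and 3 lower (*Wnt5b*, *Fzd4* and *Fzd9*), against 2.95% and 6.05%. Here *Wnt7a* and *Axin2* passed the filter only through the shNFIB library of day 0 itself. In shMLL1 cells 3 were higher (*Wnt7a*, *Dkk2* and *Axin2*) and 5 lower (*Wnt5b*, *Fzd4*, *Fzd9*, *Sfrp1* and *Sfrp2*), against 1.67% and 7.43%. *Dkk2* passed only through shNFIB and shMLL1 cells at day 0, so the day 0 counts follow in part from the filter. Of the 20 genes past the filter, 0.00% were higher and 15.0% lower for shKDM4D at day 0. The shares were 15.0% and 15.0% for shNFIB, and 15.0% and 25.0% for shMLL1. At day 5 shKDM4D cells had 0 higher and 1 lower (*Tcf7*), against 1.88% and 4.57%. Those of shNFIB had 4 higher (*Wnt7a* with 2 reads against 0, *Fzd8*, *Sfrp1* and *Axin2*) and 3 lower (*Wnt5b*, *Dkk2* and *Lef1*), against 5.54% and 5.67%. The shMLL1 cells had 0 higher and 4 lower (*Fzd9*, *Sfrp1*, *Sfrp2* and *Lef1*), against 5.25% and 4.02%. *Fzd9*, counted as lower here, passed the filter only through shControl, shKDM4D and shNFIB cells at day 5. *Axin2* and *Wnt7a*, counted as higher in shNFIB cells at day 5, passed only through shNFIB cells at day 0. The day 5 counts thus follow in part from the filter as well. The median log2 ratios of the 44 genes to shControl cells, with 0.1 added to each RPKM, lay between -0.11 and 0.11, beside medians between -0.07 and 0.09 over all genes tested. Over the 20 past the filter that the all-gene medians also used, they lay between -0.22 and 0.20. The comparisons of 1 day share the shControl library, so they are not independent of each other.

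**Figure D5:**
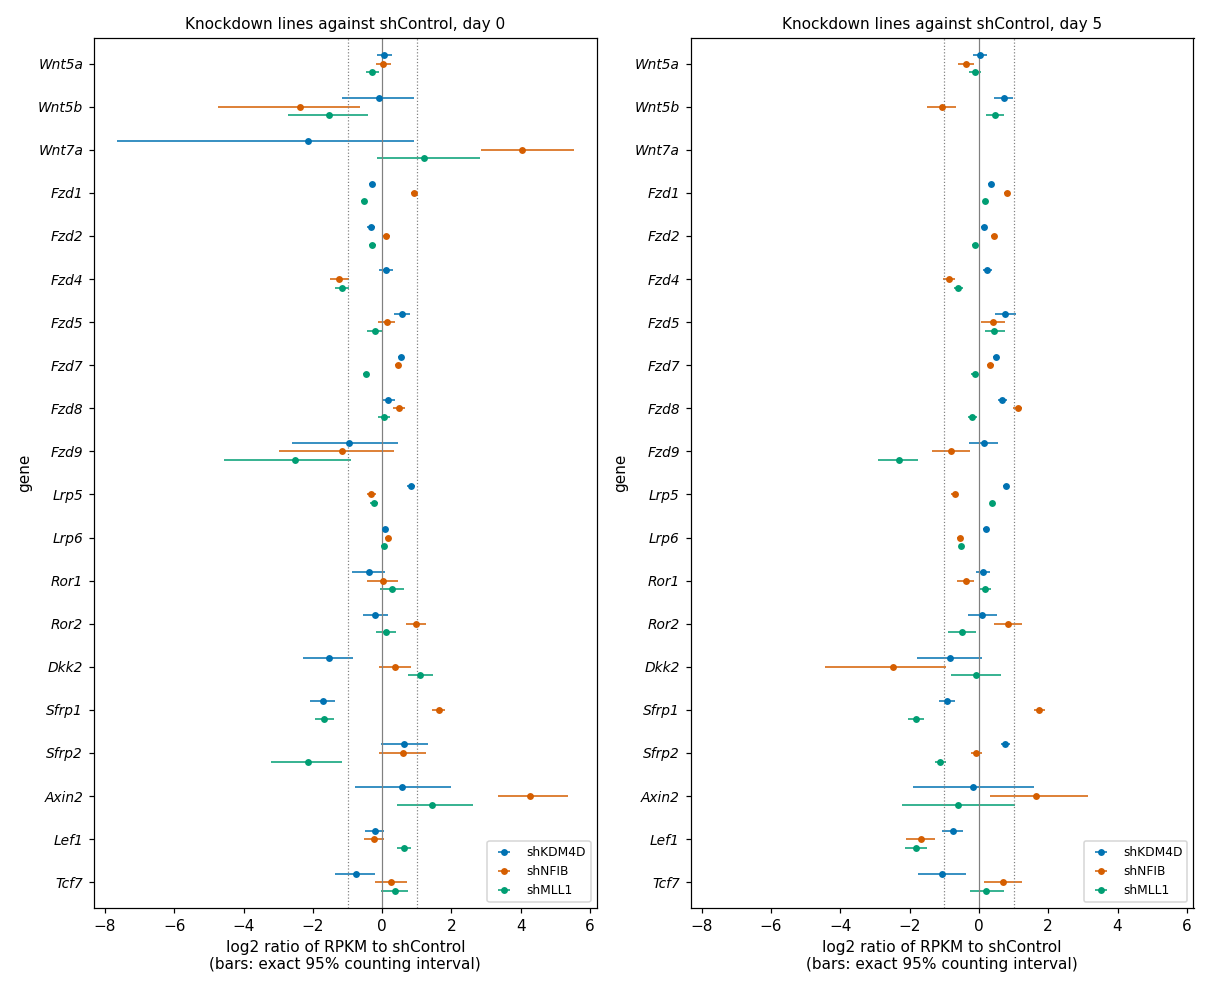
Log2 ratio of RPKM to shControl cells (x axes) of the 20 Wnt genes (y axes) in the 3 knockdown lines (colors) at day 0 (left) and day 5 (right), with exact 95% counting intervals, dotted lines at 2-fold, and no point where a library had no read. *Axin2* and *Wnt7a* in shNFIB cells at day 0 lay farthest to the right, and *Sfrp1* lay right of 0 in shNFIB cells and left of 0 in the other lines on both days.

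Other genes of the pathway were taken from a list of 57 symbols, of which 55 were found and 42 had an RPKM over 1 in at least 1 library. From day 0 to day 5, 9 of the 42 were higher and 7 lower for shControl, 10 and 6 for shKDM4D, 7 and 6 for shNFIB, and 9 and 6 for shMLL1. Against shControl cells, 3 were higher and 2 lower for shKDM4D, 5 and 5 for shNFIB and 2 and 6 for shMLL1 at day 0, and 4 and 3, 5 and 2, and 2 and 2 at day 5. As shares of the 42, the genes higher at day 5 were 21.4%, 23.8%, 16.7% and 21.4% in shControl, shKDM4D, shNFIB and shMLL1 cells, against 13.0%, 12.8%, 12.6% and 20.4% of all genes tested. Those lower were 16.7%, 14.3%, 14.3% and 14.3%, against 8.56%, 8.44%, 4.96% and 6.89%. Of the 42, *Porcn* and *Sostdc1* exceeded an RPKM of 1 only at day 5, and *Lgr6*, *Znrf3*, *Notum* and *Nkd2* only at day 0. Against shControl cells at day 0, 7.14% were higher and 4.76% lower in shKDM4D cells, where all genes gave 1.98% and 4.26%. For shNFIB they were 11.9% and 11.9%, against 2.95% and 6.05%, and for shMLL1 4.76% and 14.3%, against 1.67% and 7.43%. *Nkd2* passed the filter only through shNFIB cells at day 0, and *Lgr6* only through shMLL1 cells at day 0. Each counted as higher there, so these shares follow in part from the filter. At day 5 the shares were 9.52% and 7.14% for shKDM4D, against 1.88% and 4.57%. They were 11.9% and 4.76% for shNFIB, against 5.54% and 5.67%. For shMLL1 they were 4.76% and 4.76%, against 5.25% and 4.02%. Here *Lgr6* counted as higher in each knockdown line, at 0.0135, 0.0276 and 0.0306 RPKM against 0 in shControl cells. *Nkd2* counted as higher in shNFIB and shMLL1 cells, at 0.353 and 0.00544 against 0. *Sostdc1*, counted as lower in shKDM4D and shMLL1 cells, passed the filter only through shControl and shNFIB cells at day 5. The day 5 shares thus follow in part from the filter as well.

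The R-spondins are secreted agonists that keep frizzled receptors at the cell surface. *Rspo2* and *Rspo3* were at least 5.39 RPKM in 7 of the 8 libraries, above each Wnt ligand, and in shMLL1 cells at day 0, at 1.78 and 1.96 RPKM, they were close to *Wnt5a* at 1.70. *Rspo1* stayed at or below 0.430 RPKM, and *Rspo4* was at 0 in every library. *Rspo3* had an RPKM of 11.6 then 39.4 in the shControl line, 35.9 then 124 with shKDM4D, 5.39 then 42.0 with shNFIB, and 1.96 then 37.7 with shMLL1. Its log2 ratio to shControl cells was 1.63 (1.52 to 1.74) in shKDM4D cells and -2.57 (-2.78 to -2.36) in shMLL1 cells at day 0, and 1.65 (1.59 to 1.72) and -0.06 (-0.13 to 0.01) at day 5. *Rspo2* had 35.4 then 52.4 in the shControl line, 19.2 then 72.5 with shKDM4D, 9.21 then 76.8 with shNFIB, and 1.78 then 43.9 with shMLL1. It was low at day 0 in shNFIB and shMLL1 cells, with log2 ratios of -1.94 (-2.05 to -1.84) and -4.32 (-4.48 to -4.16) to shControl cells, and within 2-fold of shControl cells in each line at day 5. *Lgr4*, a receptor of the R-spondins, was at 17.0 then 15.7 in the shControl line, 17.2 then 36.7 with shKDM4D, 7.53 then 17.1 with shNFIB, and 9.03 then 22.5 with shMLL1, and was higher at day 5 in the 3 knockdown lines while the change in shControl cells was -0.12 (-0.20 to -0.03).

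Among the nuclear factors, *Tcf7l1* and *Tcf7l2* were well above *Lef1* and *Tcf7* in level in every library. *Tcf7l2* had an RPKM of 3.99 then 15.4 in the shControl line, 4.64 then 20.9 with shKDM4D, 5.74 then 9.77 with shNFIB, and 4.26 then 6.01 with shMLL1. It was higher at day 5 in shControl (1.95, interval 1.84 to 2.06) and shKDM4D cells (2.17, interval 2.06 to 2.29), and its change in shNFIB (0.77, interval 0.65 to 0.89) and shMLL1 cells (0.50, interval 0.40 to 0.59) was within 2-fold. *Tcf7l1*, which mostly represses, was at 12.1 then 33.0 in the shControl line, 19.2 then 53.4 with shKDM4D, 11.6 then 18.9 with shNFIB, and 15.1 then 32.5 with shMLL1. *Tle2*, a co-repressor, was at 1.88 then 6.44 in the shControl line, 0.905 then 7.41 with shKDM4D, 0.655 then 4.73 with shNFIB, and 0.833 then 5.62 with shMLL1 and was higher at day 5 in each line. *Ccnd1*, a cell cycle gene often used as a target of the pathway, was at 66.5 then 28.0 in the shControl line, 78.2 then 36.1 with shKDM4D, 130.4 then 65.3 with shNFIB, and 82.1 then 32.4 with shMLL1, highest in shNFIB cells on both days. *Apcdd1*, a membrane-bound inhibitor, was at 0.899 then 2.75 in the shControl line, 0.549 then 0.578 with shKDM4D, 1.21 then 0.474 with shNFIB, and 7.54 then 2.54 with shMLL1, highest in shMLL1 cells at day 0 with a log2 ratio of 3.07 (2.90 to 3.24) to shControl cells. *Wisp1* and *Wisp2*, also used as targets, were at 13.6 then 5.28 in the shControl line, 25.4 then 9.34 with shKDM4D, 26.0 then 22.6 with shNFIB, and 14.9 then 8.49 with shMLL1, and at 48.7 then 29.7 in the shControl line, 147 then 37.8 with shKDM4D, 104 then 56.7 with shNFIB, and 26.3 then 28.3 with shMLL1, in that order, with no interval because their reads were not recovered. Other genes of the list that passed both 2-fold in a comparison and an RPKM of 5 were *Wls*, *Ptk7*, *Apc*, *Myc*, *Cd44* and *Fst*, with highest RPKM values of 44.3, 7.15, 11.8, 15.0, 40.2 and 12.2. *Wls*, which escorts Wnt ligands to the cell surface, had an RPKM of 34.5 then 43.0 in the shControl line, 32.7 then 38.5 with shKDM4D, 35.9 then 44.3 with shNFIB, and 17.1 then 33.5 with shMLL1, and passed 2-fold only in shMLL1 against shControl cells at day 0 (-1.02, interval -1.07 to -0.97). That call lies at the 2-fold limit, and single calls of this list were not checked under other scalings or pseudocounts.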

How the data were processed

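RNA-seq was performed in 4 C3H10T1/2 lines at days 0 and 5, with 1 library in each of the 8 conditions. The deposited values are RPKM, which the authors calculated after SMARTer library preparation, HiSeq 2500 sequencing and mapping to GRCm38/mm10 with CLC Genomics Workbench 11.0.1. Every per-sample column was used. RPKM divides by the mapped reads of a library, so a shift in abundant RNA moves every gene. The ribosomal RNA-like genes *AY036118* and *CT010467.1* took from 3.07% to 10.5% of the reads. Reads were recovered by multiplying RPKM by the GENCODE M21 exon length (between 96.2% and 96.6% of values from 1 to 1000 reads lay within 0.02 of a whole read), and were used for exact Clopper-Pearson 95% intervals of ratios, which cover counting error only. The floor was 3 reads. A count test on the recovered reads was not run, since 1 library per condition leaves no spread to estimate. Scripts used Python 3.11.15, numpy 2.4.6, pandas 2.3.3 and scipy 1.17.1. The recovery of depth and the 2-fold calls were tested on simulated data. The interval in that simulation had a lower upper limit than the reported one, which was therefore not itself tested. The call was a 2-fold ratio without pseudocount among genes that exceeded an RPKM of 1 in some library, with no test.

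The genes and lists were chosen with earlier results of these data known. Every gene matching the symbol rule is accounted for, and those past an RPKM of 1 are given in each library. Other pathway genes are named where they passed 2-fold in a comparison and an RPKM of 5 in a library. Alternatives were no filter, an RPKM over 2, pseudocounts of 0.1 and 1, quantile normalization (which the authors used for their own fold changes), median-of-ratios scaling and totals without the rRNA-like genes.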

Additional observations from a re-analysis of the deposited data

Results flagged for a closer look

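In the RPKM as given, the change of *Lef1* from day 0 to day 5 differed in sign between shControl and the knockdown cells. The log2 change was -1.14 in shNFIB cells and -2.15 in shMLL1 cells, each a fall of more than 2-fold, and 0.29 in shControl cells. In shKDM4D cells it was -0.25 (-0.57 to 0.07). The shNFIB change was -0.99, within 2-fold, with 0.1 added to each RPKM. With 1 library per condition the difference between the lines was not tested. After quantile normalization the change in shControl cells was -0.02, so the difference in sign was not kept.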

How the results depend on the processing

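Of the counts of Wnt genes past 2-fold, those that moved by more than 1.5 times did so mainly with the filter on low values and with a pseudocount. The counts with the RPKM filter were 9, 10, 11 and 12 for the change over time in shControl, shKDM4D, shNFIB and shMLL1 cells, 3, 6 and 8 for shKDM4D, shNFIB and shMLL1 against shControl cells at day 0, and 1, 7 and 4 at day 5. With no filter, which admits genes of a few reads, they became 23, 23, 21 and 21 over time, 6, 13 and 18 at day 0, and 11, 13 and 15 at day 5. With an RPKM over 2 the shNFIB change over time kept 7, the day 0 counts of shKDM4D and shMLL1 were 1 and 5, and the day 5 counts of shKDM4D and shNFIB were 0 and 3. With 0.1 added to each RPKM, shMLL1 at day 0 had 5 and shKDM4D at day 5 had 0. With 1 added, the shMLL1 change over time had 6, the day 0 counts were 1, 3 and 1, and the day 5 counts of shKDM4D and shNFIB were 0 and 2. Quantile normalization left 0 for shKDM4D at day 5. Of 71 calls of single genes, 37 held under both pseudocounts, the 3 scalings and the counting interval, 34 ended with 1 added, 14 with 0.1 added, 4 with quantile normalization, 2 with median-of-ratios scaling, 3 without the rRNA-like genes, and 6 had a counting interval that included 0. No called ratio changed sign under the 5 alternative scales. Quantile normalization moved the median change over time of all genes tested from 0.17 to -0.09 in shMLL1 cells.

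The labels give no replicate numbers to pair libraries by. A fit of the day change with the 4 lines as pairs was not run, since the lines carry different knockdowns and are not replicates of 1 condition. With 1 library per condition, no library was left out in turn. Genes with few reads, such as *Wnt7a*, *Axin2* and *Fzd9*, are limited by depth, and a line that is 1 clone cannot be told apart from the knockdown it carries.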
